A study of Mus musculus with 12 samples.

Results

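The comparison described here is that of interleukin-4 (IL-4) with vehicle in mouse hepatic progenitors, liver epithelial precursors grown in culture, measured on Illumina expression beadchips. It used the 4 arrays labelled as given IL-4 and the 4 labelled as control, 8 of the 12 arrays of the series, and the other 4 arrays, given IL-13, entered only the estimate of the spread. The genes were chosen by a rule that ignored the groups: every gene with an annotated probe that was detected above background (a detection p below 0.05) on 4 or more of the 12 arrays, 10453 of the 19057 genes with a probe. Per the labels, the cells carried EpCAM, CD24 and CD133, lacked CD45, CD31 and TER119 when sorted, and were kept in a medium that held dexamethasone, IL-6 and the growth factors EGF and HGF. Both groups then spent 24 hours without serum, after which one received IL-4 at 50 ng/mL and the other a vehicle of 0.1% bovine serum albumin. The sources used here do not give the length of the exposure or say that replicates came from separate cultures or animals. The p-values therefore measure the spread between these samples alone, which may be technical.

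IL-4 is the defining cytokine of type 2 immunity. On cells that are not of the blood lineage it acts mainly through a receptor of the IL-4 receptor alpha chain and IL-13 receptor alpha 1, whose Janus kinases phosphorylate the transcription factor STAT6, which then enters the nucleus and binds a palindromic DNA motif. In airway and gut epithelium the pathway is known for mucus, protease inhibitors and chemokines, and in macrophages for chitinase-like proteins and a shift in metabolism.

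Between 18469 and 19869 of 45281 probes were detected on an array, and within a group the correlation across genes between arrays was 0.993 to 0.997. Each of the 2 chips held 2 arrays of every group (replicates 1 and 2 on chip 1, 3 and 4 on chip 2), and each group kept its position, so position cannot be told apart from treatment. The duct keratin gene Krt19 lay at a normalised log2 signal of 11.49, 11.46, 11.17 and 11.21 on control arrays 1 to 4 and of 11.51, 11.59, 11.46 and 11.52 on the IL-4 arrays, with overlapping groups. The difference of 0.18 ± 0.08 (SE) on the log2 scale did not pass the threshold (limma adjusted p = 0.331), nor did that of the duct transcription factor gene Sox9 (-0.18) or of the sort marker gene Cd24a (0.02). Of the other genes of the sort gate, Epcam has 1 probe, which was detected on no array, and Prom1, which encodes CD133, has 3 probes, detected on 0, 1 and 5 of 12 arrays, so that these labels could not be checked here: a probe that does not work and a low RNA level cannot be told apart. Markers of other cells were scarce: of the macrophage list 3 of 23 genes with a probe could be tested, of the lymphocyte list 2 of 14, of the mast cell, granulocyte and platelet list 3 of 20, of the stellate cell and fibroblast list 5 of 22 and of the endothelial list 8 of 21, and none of these passed the threshold. Adgre1, Cd3d, Col1a1 and Pecam1 were among the 9, 7, 14 and 10 genes of their lists detected on no array.

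Red cell transcripts were the exception. The mean log2 signal of the hemoglobin genes Hba-a1, Hbb-bs and Hbb-bt was 4.64, 4.57, 4.48 and 5.95 on control arrays 1 to 4 and 5.36, 6.77, 4.68 and 8.95 on IL-4 arrays 1 to 4. Control 4, IL-4 2 and IL-4 4 thus stood highest and the groups overlapped. The 6 tested genes of the 19 erythroid markers did not pass the threshold, but all 6 were higher with IL-4. Their median log2 difference was 0.70, and 0.35 without these 3 arrays. Leaving the 3 out does not balance the groups, as the IL-4 arrays kept lay at 5.36 and 4.68 and the control arrays kept at 4.64, 4.57 and 4.48. Of the 19 markers 11, among them Alas2, Klf1 and Gata1, were detected on no array. Results below are given on all arrays and, where it matters, without these 3 hemoglobin-rich arrays. Fewer arrays give less precision, so a call lost there does not show that it came from hemoglobin.

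With IL-4, 363 of 10453 genes (3.47%) passed a limma adjusted p of 0.05, 225 of them higher (2.15%) and 138 lower (1.32%). These shares are the background against which each functional group is read. The rises reached further than the falls: 30 genes rose and 1 fell at least 2-fold, and the median log2 change was 0.54 among the higher and -0.39 among the lower genes. The median difference over all genes was -0.01. In the submitters' own processed values, which are median-centred and not background-corrected, the split turned to 120 higher and 294 lower (29.0% higher in place of 62.0%). Changing the scaling or the background correction in other ways did not turn it: 75th percentile scaling gave 216 higher and 148 lower genes, and quantile normalisation without background correction 253 and 170. Of the higher genes 15 were detected on no control array and 28 on only some, and of the lower genes 2 were detected on no IL-4 array. All IL-4 arrays lay above all control arrays for 217 of the called genes and below them for 122, and the arrays of 24 overlapped; of all tested genes 882 (8.44%) had groups that did not overlap. Without the 3 hemoglobin-rich arrays 190 genes (1.82%) passed.

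Sorted into 77 functional lists with 4737 tested genes, the called genes were unevenly spread. Of 132 genes for secreted factors 22 were called (16.7%), of 127 for proteases and their inhibitors 17 (13.4%), of 121 immune genes 14 (11.6%) and of 688 metabolic genes 57 (8.28%), as drawn in the plot of functional classes. Of 1633 genes for cell growth and stress, which covers the cell cycle, ribosomes, protein turnover and RNA processing, 21 were called (1.29%). These counts describe lists that were drawn up with earlier results of these data known, and a gene can stand in several of them.

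**Figure D1:**
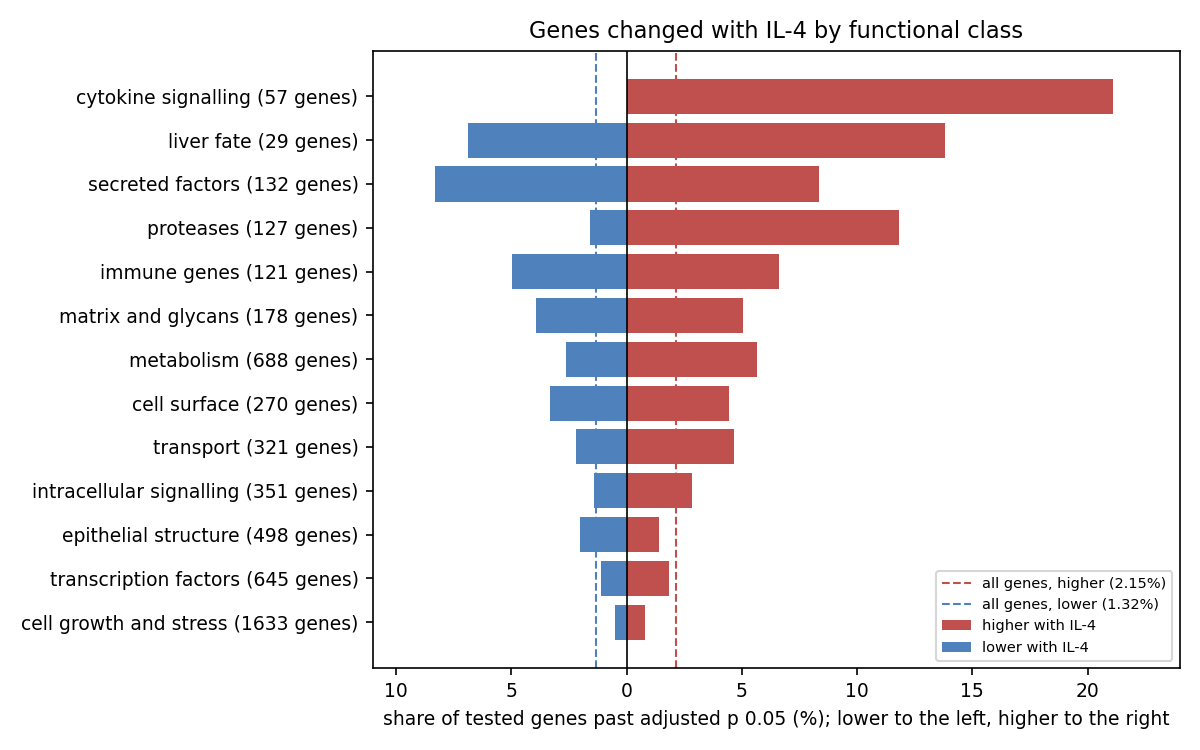
Share of the tested genes of each functional class that passed a limma adjusted p of 0.05, with genes higher with IL-4 to the right and lower genes to the left (%), and dashed lines at the shares among all genes (2.15% and 1.32%). Cytokine signalling genes reach the highest share (21.1% higher, 0% lower). That class includes a list of known STAT6 targets, which holds 10 of its 12 higher genes, so its rank follows in part from the choice of lists. Cell growth and stress genes lie below both lines (0.796% and 0.49%).

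Of the pathway's own components few passed the threshold, though many had a small unadjusted p. Il13ra1, the receptor chain that pairs with the IL-4 receptor alpha chain outside blood cells, differed by -0.36 ± 0.10 on the log2 scale (limma adjusted p = 0.0512) and Stat6 by 0.11 ± 0.12 (adjusted p = 0.776). Of 24 receptor chains and JAK-STAT components only Ifngr2, a chain of the interferon-gamma receptor, was called (log2 change 0.32, adjusted p = 0.0376), while 10 had an unadjusted p under 0.05 (41.7%, against 14.1% of all genes). Of 11 SOCS and PIAS inhibitors, which damp cytokine receptors, 2 rose. Cish, an immediate target of STAT factors that blocks receptor docking, lay at a log2 signal of 9.02, 9.03, 9.26 and 8.80 on the control arrays and at 11.56, 11.38, 11.60 and 11.41 with IL-4, a rise that was the same on both chips (2.45 and 2.47). Socs2 rose by 0.27, and Socs3, the inhibitor induced by IL-6, differed by -0.11 ± 0.10 (adjusted p = 0.676). Ifngr2 and Socs2 passed narrowly: both lost the call without the hemoglobin-rich arrays (adjusted p = 0.205 and 0.0906), and without several single arrays their adjusted p reached 0.128 and 0.149.

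The list of STAT6 targets described in macrophages and lymphocytes had 23 tested genes, of which 10 rose and 0 fell, with a median log2 difference of 0.34. The chitinase-like gene Chil4 was near background on control arrays 1 to 3 (4.40, 4.32 and 4.36), higher on control 4 (5.12), the only control array on which it was detected, and between 12.81 and 13.36 on the IL-4 arrays. Its neighbour Chil3, detected on no control array, reached 9.51, 9.68, 8.83 and 9.22 with IL-4 and was at least 26.9-fold higher. The Th2 chemokine gene Ccl17 lay at 6.19, 6.20, 5.86 and 6.19 in control and at 8.19, 8.28, 7.93 and 7.72 with IL-4. Ppargc1b, a coactivator that drives mitochondrial genes in IL-4 stimulated macrophages, rose from 5.04 to 5.36 on control arrays to 6.18 to 6.56 (log2 change 1.28 ± 0.09, SE; adjusted p = 7.24e-08). The tissue transglutaminase gene Tgm2 rose by 0.94, the monocyte chemokine gene Ccl7 by 0.71, the transcription factor genes Klf4, Gata3 and Bcl6 by 0.68, 0.41 and 0.37, Gata3 being detected on 1 of 4 control arrays. Without the hemoglobin-rich arrays 9 members were called, 8 of these among the 10, while Gata3 (adjusted p = 0.169) and Bcl6 (0.102) were not. Bcl6 also lost its call without control 2 or IL-4 1 (largest adjusted p = 0.0585).

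STAT6 is known to bind TTCNNNNGAA, with a spacer of 4 bases, while most STAT factors prefer TTCNNNGAA, with a spacer of 3. Both motifs read the same on either strand, matches of the forms may overlap and were counted separately, and both were searched in the RefSeq promoter windows (GRCm38.p6; 250 bases before to 50 after a gene's start), which covered 8527 of the tested genes. Of these 548 held the 4-base form (6.43%), against 21 of 185 genes higher with IL-4 (11.4%) and 9 of 106 lower genes (8.49%). The 3-base form was held by 697 of all genes with a window (8.17%), by 19 of the higher (10.3%) and by 6 of the lower (5.66%). The following windows, printed 5′ to 3′ on the strand of the gene with the match in capitals, are shown because their genes rose with IL-4 and because the first pair shows how alike Chil4 and Chil3 are; those of Chil4 and Chil3 hold the 3-base form and the others the 4-base form.
Chil4, chr3:106219651-106219699, minus strand: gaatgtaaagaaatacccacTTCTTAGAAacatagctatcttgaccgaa
Chil3, chr3:106167708-106167756, minus strand: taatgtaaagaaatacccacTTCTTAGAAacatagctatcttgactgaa
Ccl17, chr8:94810279-94810328, plus strand: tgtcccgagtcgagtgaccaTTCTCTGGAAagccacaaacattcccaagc
Prss35, chr9:86743472-86743521, plus strand: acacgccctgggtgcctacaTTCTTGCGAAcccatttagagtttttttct
Edn1, chr13:42301271-42301320, plus strand: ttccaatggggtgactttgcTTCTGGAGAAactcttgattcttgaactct
Vdr, chr15:97908487-97908536, minus strand: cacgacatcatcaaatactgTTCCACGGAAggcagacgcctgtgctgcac
The Chil4 and Chil3 windows share 47 of 49 bases, and probes for the pair can bind both transcripts. The window of Cish held the 3-base form in 2 places, and those of Igfbp5 and Capn13, which rose more, held neither form. A match is a description of these letters and not evidence of binding.

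**Figure D2:**
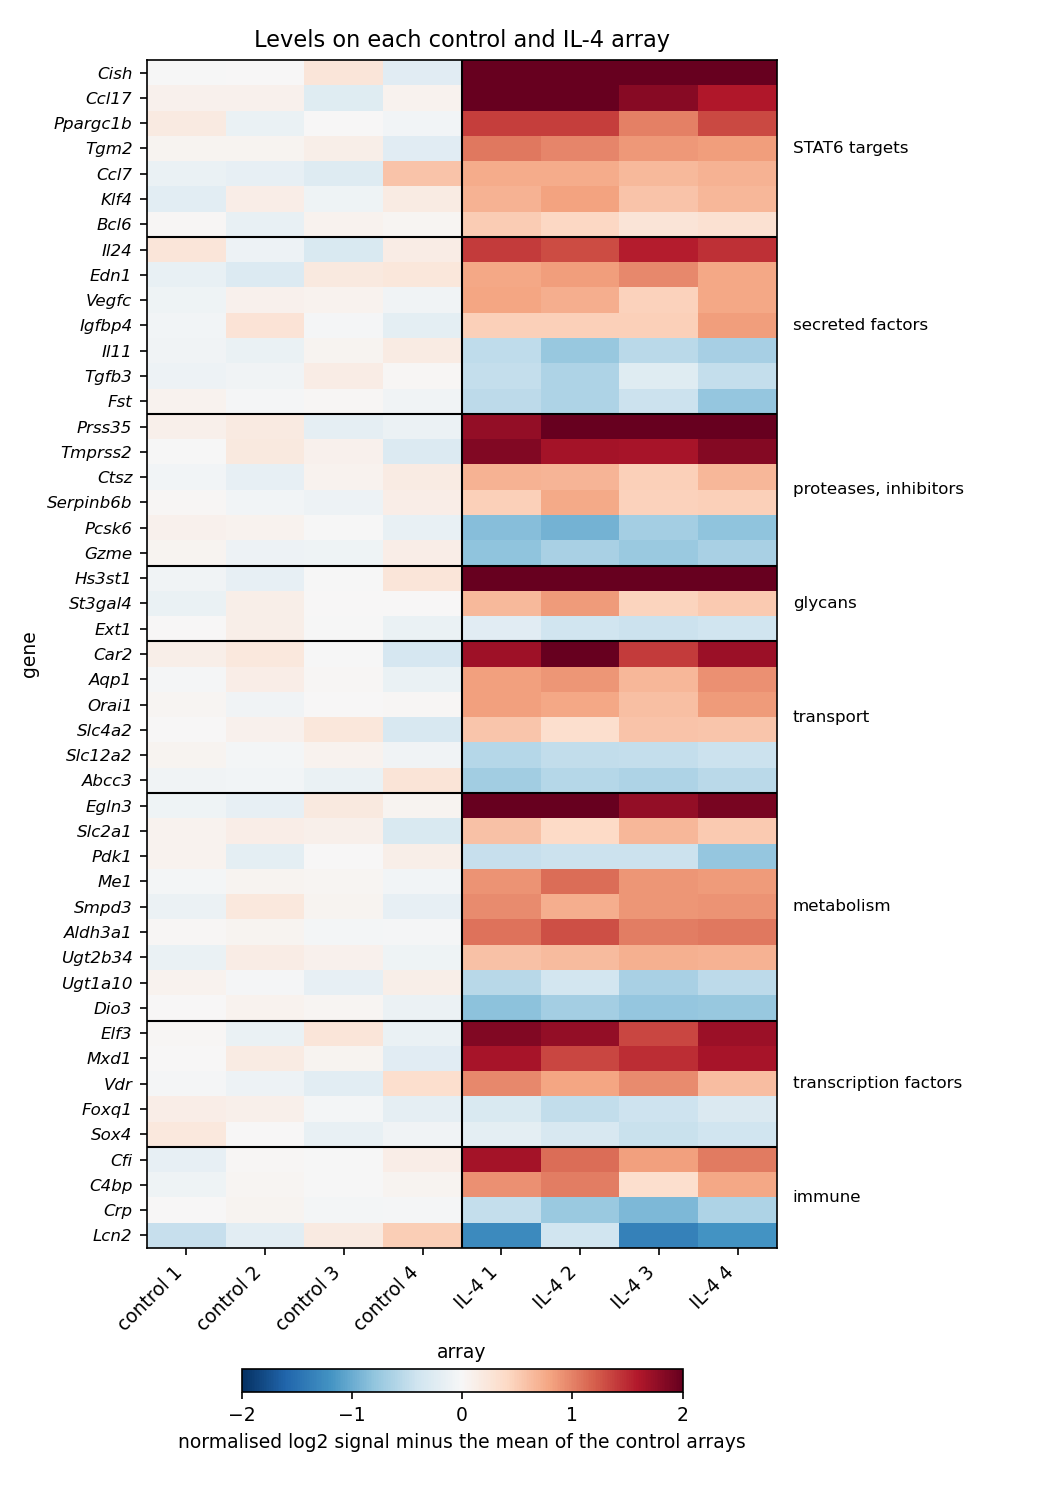
Normalised log2 signal of named genes on each control and IL-4 array, minus the mean of the 4 control arrays of that gene, in blocks by function; the colour scale ends at -2 and 2, so larger differences (of Cish, Ccl17, Prss35, Hs3st1, Car2 and Egln3) are drawn at its end. Within a block the 4 IL-4 arrays share a direction for each gene, and Lcn2 shows the overlap between IL-4 2 (6.95) and control 1 (6.89).

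Genes for secreted signals moved in both directions. Of 17 chemokine genes 4 rose and 1 fell. Besides Ccl17 and Ccl7, the macrophage chemokine gene Ccl9 rose by 0.59, and Cxcl13, the B cell attractant, rose at least 1.12-fold from control arrays that all lay at background. Il24, a member of the IL-10 family that signals to epithelia, rose from 5.62, 5.27, 5.07 and 5.53 on the control arrays to 6.77, 6.68, 6.95 and 6.83 (log2 change 1.43 ± 0.11; adjusted p = 8.16e-08). Il11, which acts on epithelial and stromal cells through the gp130 receptor, fell from 7.81, 7.74, 7.94 and 8.04 to 7.37, 7.13, 7.34 and 7.22 (-0.62 ± 0.10; adjusted p = 0.00127). The lymphatic growth factor gene Vegfc rose by 0.68 and the endothelin gene Edn1, a vasoconstrictor peptide of duct and endothelial cells, by 0.84, with all IL-4 arrays (8.19 to 8.39) above all control arrays (7.15 to 7.65). Of 18 genes of the insulin-like growth factor system 2 rose, both for binding proteins that hold the growth factors outside the cell. Igfbp5 went from 4.73, 4.83, 5.14 and 5.20 to 10.16, 9.77, 9.11 and 9.28, by 5.18 on chip 1 and 4.03 on chip 2, and 2 further probes of it passed with log2 changes of 4.83 and 4.27. Igfbp4 rose by 0.57, from 10.94 to 11.41 on control arrays to 11.60 to 11.96. Leaving out the hemoglobin-rich arrays, Ccl9, Cxcl13, Il11 and Igfbp4 lost the call (adjusted p = 0.165, 0.0717, 0.0943 and 0.0888). Ccl9 also lost it without control 1, IL-4 2, IL-4 3 or IL-4 4 (largest adjusted p = 0.0685).

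Of 39 genes of the TGF-beta and BMP pathway, which in the liver drives fibrosis and duct differentiation, 5 fell and 2 rose on all arrays. These are 12.8% and 5.13%, against 1.32% and 2.15% of all genes. Without the hemoglobin-rich arrays 1 gene was lower and 1 higher. The list's median log2 difference was -0.10, with -0.15 on chip 1 and -0.03 on chip 2. The ligand gene Tgfb3 fell from 7.49, 7.52, 7.73 and 7.61 to 7.11, 6.98, 7.35 and 7.11 (-0.45 ± 0.09; adjusted p = 0.00553). Fst, whose product follistatin traps activins, fell from 5.66 to 5.80 on control arrays to 4.95 to 5.31. Ltbp1, which stores latent TGF-beta in the matrix, fell by 0.44 on the log2 scale, the type I receptor genes Tgfbr1 and Acvr1b by 0.35 and 0.45. As the falls include a trap of ligands beside a ligand and receptors, these counts give no direction of pathway activity, which was not tested. The integrin gene Itgb6, whose product activates latent TGF-beta on epithelia, rose from 9.61, 9.75, 9.87 and 9.77 to 10.43, 10.15, 10.54 and 10.40 (0.63 ± 0.09; adjusted p = 0.000232). Thbs1, which encodes another activator, rose by 0.38. With the hemoglobin-rich arrays left out, Itgb6 (adjusted p = 0.00106) and Fst (0.0248) kept the call, and Tgfb3 (0.178), Ltbp1 (0.109), Tgfbr1 (0.184), Acvr1b (0.115) and Thbs1 (0.369) did not. Acvr1b, Tgfbr1 and Thbs1 also depended on single arrays, with adjusted p of up to 0.152, 0.0522 and 0.126 when one was left out.

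Of 39 genes of the Wnt pathway, another regulator of progenitor cells, 3 rose and 1 fell. The ligand gene Wnt2 passed detection on 1 of 4 control arrays; it rose from 4.31, 4.89, 4.49 and 4.39 to 5.34, 5.42, 5.34 and 5.31, and Axin2, the standard transcriptional readout of beta-catenin, rose from 6.23 to 6.41 on control arrays to 6.56 to 6.86 (0.40 ± 0.08; adjusted p = 0.00554). Wnt6 rose by 0.37 and the repressor gene Tcf7l1 fell by 0.34 on the log2 scale. The further probes of Wnt6 differed in direction (-0.25 and 0.35), and neither passed. Wnt2 and Axin2 kept the call without the hemoglobin-rich arrays (adjusted p = 0.0138 and 0.021), while Wnt6 (0.254) and Tcf7l1 (0.134) lost it, as they did without IL-4 2 alone (0.0709 and 0.0671).

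Proteases and their inhibitors changed mostly upward. Of 32 serine protease genes 3 rose and 2 fell. Prss35, which encodes a secreted serine protease-like protein, lay at 6.35, 6.43, 6.08 and 6.13 in control and at 8.0, 8.31, 8.27 and 8.31 with IL-4. The transmembrane protease gene Tmprss2 lay at 8.40, 8.59, 8.48 and 8.13 and then at 10.25, 10.06, 10.04 and 10.23. Pcsk6, a convertase that activates TGF-beta family ligands, fell from 7.06, 7.05, 6.97 and 6.83 to 6.13, 6.04, 6.30 and 6.18, and the granzyme gene Gzme by 0.71 on the log2 scale. Of 31 calpain, cathepsin and caspase genes 4 rose. The calpain gene Capn13 passed detection on 1 of 4 control arrays; it rose from between 4.24 and 4.62 to between 6.98 and 7.50, the lysosomal cathepsin genes Ctsz and Ctsh rose by 0.63 and 0.42, and the cystatin gene Cst9 by 1.07. Of 26 serpins and other protease inhibitors 7 rose and 0 fell, with a median log2 difference of 0.07 (0.17 on chip 1 and -0.01 on chip 2). Spink4, an inhibitor of goblet cells, was detected on no control array and reached 6.65, 6.37, 5.62 and 5.88 with IL-4, at least 2.97-fold higher. The clade B serpins, which inhibit proteases inside cells, made up the rest with 1 exception, Serpina7. Serpinb6b rose from 8.99, 8.91, 8.87 and 9.10 to 9.45, 9.73, 9.43 and 9.44, and Serpinb9g, Serpinb1a, Serpinb9f and Serpinb9b rose by 0.78, 0.71, 0.66 and 0.58. Serpinb9g was detected on 2 of 4 control arrays, and Serpinb1a, Serpinb9f and Serpina7 on 1. Probes of these closely related serpins can bind each other's transcripts, so they are uncertain as separate measurements. Without the hemoglobin-rich arrays 14 of the 17 called genes of the class kept the call, and Cst9 (adjusted p = 0.0503), Serpina7 (0.165) and the metalloprotease gene Adamts9 (0.383), which had risen by 0.39, did not. Serpina7 also lost it without control 3 or IL-4 3 (largest adjusted p = 0.0553), and Adamts9 without several single arrays (up to 0.144).

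Of 16 mucins and goblet cell products 3 rose and 1 fell (25%, against 3.47% of all genes), and of 72 glycosyltransferases 2 rose and 1 fell. Hs3st1, whose product adds the 3-O-sulfate of heparan sulfate chains, lay at 7.53, 7.43, 7.60 and 7.84 in control and at 10.28, 10.02, 9.68 and 9.89 with IL-4. Of 39 genes of heparan and chondroitin sulfate synthesis 3 were called, and besides Hs3st1 the sulfotransferase gene Chst8 rose by 0.39 and the chain polymerase gene Ext1 fell by 0.36 on the log2 scale. The sialyltransferase gene St3gal4, which caps glycans with sialic acid, rose from 7.14, 7.40, 7.28 and 7.28 to 7.93, 8.13, 7.73 and 7.80 (0.62 ± 0.09; adjusted p = 0.000298), and the mucin-type glycosyltransferase gene Galnt14, detected on no control array, was at least 1.2-fold higher. Of the mucus genes Clca1, detected on 3 of 4 control arrays, rose from 4.57, 4.37, 4.70 and 4.73 to 6.40, 7.07, 6.41 and 6.82, while its relative Clca3b fell from 9.25, 8.96, 9.34 and 8.94 to 8.51, 8.36, 8.75 and 8.42. Slc26a4, the anion exchanger pendrin, was above background with IL-4 but on no control array, a rise of at least 1.37-fold. Among 54 genes for collagens, laminins and matrix glycoproteins 4 fell and 2 rose, with Col16a1 falling most (-0.65 ± 0.11; adjusted p = 0.00204) and Col6a5, detected on no control array, at least 1.16-fold higher. The mean log2 level of the 5 testable stellate cell and fibroblast markers was also lower with IL-4 (6.40 to 6.64) than in control (6.67 to 6.83). The markers did not move together, as 2 of the 5 were higher with IL-4. The median log2 difference of the 5 was -0.08 (-0.14 on chip 1 and -0.02 on chip 2) and the mean -0.20. None of the 5 was called, 14 of the 22 with a probe were detected on no array, Col1a1, Col1a2 and Col3a1 among them, and their part in the matrix and TGF-beta results was not tested. In bulk samples fewer cells of a type and less RNA per cell cannot be told apart. Hs3st1, St3gal4, Clca1, Slc26a4, Col16a1 and Col6a5 kept the call without the hemoglobin-rich arrays, and Chst8 (adjusted p = 0.0943), Ext1 (0.0864), Galnt14 (0.167) and Clca3b (0.0946) lost it.

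Genes that move ions, water and acid, the work of bile duct epithelium, changed in both directions. Of 87 ion channel, aquaporin and carbonic anhydrase genes 7 rose and 3 fell (11.5% called, against 3.47% of all genes). Car2, the cytosolic carbonic anhydrase that supplies bicarbonate for secretion, lay at 5.04, 5.13, 4.91 and 4.58 in control and at 6.60, 6.95, 6.31 and 6.63 with IL-4. Its log2 change of 1.71 was 1.43 without the hemoglobin-rich arrays (adjusted p = 1.5e-05). The water channel gene Aqp1 rose from 9.49, 9.64, 9.53 and 9.38 to 10.32, 10.39, 10.17 and 10.43, and the calcium entry channel gene Orai1 from 8.66, 8.55, 8.64 and 8.66 to 9.45, 9.39, 9.23 and 9.47. Of 186 solute carrier genes 6 rose and 2 fell. Slc4a2, which exchanges chloride for bicarbonate, rose by 0.50, whereas Slc12a2, which loads epithelial cells with sodium, potassium and chloride, fell from 10.52, 10.43, 10.55 and 10.40 to 9.90, 9.98, 10.01 and 10.05 (-0.49 ± 0.07; adjusted p = 0.000188). Slc22a18 rose by 0.67. Of the transporters of the ABC family Abcc3, which exports glucuronides and bile salts, fell from 8.29, 8.31, 8.22 and 8.63 to 7.66, 7.79, 7.74 and 7.82, and Abcc4 fell by 0.35 on the log2 scale. Of these genes only Abcc4 lost the call without the hemoglobin-rich arrays (adjusted p = 0.0728), and it lost it as well without control 2, control 3, IL-4 1 or IL-4 2. The channel genes Clic6 and Cacna2d1 also fell but lost the call without those arrays (adjusted p = 0.2 and 0.205), Clic6 also without several single arrays (up to 0.171).

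Genes of glucose use and of the hypoxia response split rather than moving together. Of 30 tested, 5 rose and 4 fell, and the median log2 difference was -0.07. Egln3, a prolyl hydroxylase that marks hypoxia-inducible factors for decay, lay at 6.78, 6.71, 7.06 and 6.92 in control and at 9.02, 9.12, 8.63 and 8.76 with IL-4. The clock and hypoxia repressor gene Bhlhe40 rose by 0.62 and the glucose transporter gene Slc2a1 from 10.23, 10.28, 10.25 and 9.86 to 10.74, 10.55, 10.82 and 10.68. Pdk1, a hypoxia target that keeps pyruvate out of mitochondria, fell from 6.58, 6.32, 6.53 and 6.63 to 6.05, 6.08, 6.09 and 5.74 (-0.53 ± 0.10; adjusted p = 0.00279). Of the phosphofructokinase genes the platelet form Pfkp rose by 0.42 and the liver form Pfkl fell by 0.31 on the log2 scale. The further probe of each did not pass, with log2 changes of 0.03 for Pfkp and 0.04 for Pfkl. The hypoxia target Ankrd37 fell by 0.40. Its groups overlapped. Egln3, Bhlhe40 and Slc2a1 kept the call without the hemoglobin-rich arrays (largest adjusted p = 0.0188), and Pdk1 (0.0825), Pfkp (0.197), Pfkl (0.0915) and Ankrd37 (0.0628) did not. Pfkl and Ankrd37 also failed without single arrays, with adjusted p of up to 0.144 and 0.119.

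Among lipid genes, those of fatty acid synthesis and storage (3 of 42 higher, 7.14%) and of phospholipases and sphingolipids (6.58% higher) rose more often than all genes (2.15%), as counts that were not tested as lists. Me1, the malic enzyme that makes NADPH for fatty acid synthesis, lay at 8.44, 8.53, 8.52 and 8.43 in control and at 9.38, 9.60, 9.36 and 9.34 with IL-4. The lipid droplet gene Cidec, detected on 1 of 4 control arrays, rose by 0.89 and Acsl3, which activates fatty acids at droplets, by 0.69. Of 76 genes of phospholipases, eicosanoids and sphingolipids 5 rose and 1 fell. Pla2g4c, a phospholipase A2 that releases fatty acids from membranes, was detected on no control array, reached 6.11, 6.64, 5.65 and 6.13 with IL-4 and was at least 2.97-fold higher. Smpd3, a neutral sphingomyelinase that makes ceramide, rose from 9.34, 9.66, 9.52 and 9.29 to 10.40, 10.18, 10.34 and 10.35. On the oxidation side 2 of 61 genes fell, the peroxisomal Acaa1b (-0.63 ± 0.08; adjusted p = 7.84e-05) and Acox2 (-0.47 ± 0.09; 0.00456), and 1 rose. Of 84 respiratory chain genes, a list that includes their coactivator Ppargc1b, only that gene was called. The list's median log2 difference was 0.06, with 67 of 84 differences above 0, against 4865 of 10453 over all genes. This median was 0.08 on chip 1 and 0.02 on chip 2, and a shift of the list was not tested. All lipid genes named with a value here kept the call without the hemoglobin-rich arrays, but not all genes counted here did. Of the 5 rises among phospholipases, eicosanoids and sphingolipids 2 were called there, and the 1 fall was not. The 1 rise on the oxidation side was not called there either.

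Conjugating and redox enzymes, which clear bile pigments, drugs and peroxides, changed in both directions. Of 87 genes of glucuronidation, glutathione and NRF2 targets 9 rose and 6 fell (17.2% called). The aldehyde dehydrogenase gene Aldh3a1 lay at 10.73, 10.75, 10.65 and 10.67 in control and at 11.78, 11.99, 11.73 and 11.76 with IL-4. Of the glucuronosyltransferases the 2B genes Ugt2b35 and Ugt2b34 rose, the latter from 5.96, 6.25, 6.18 and 6.01 to 6.69, 6.73, 6.81 and 6.80, whereas the 1A genes Ugt1a6a, Ugt1a6b and Ugt1a10 fell. Ugt1a10 was the brightest of these, at 10.70, 10.61, 10.48 and 10.77 in control and 10.08, 10.27, 9.99 and 10.12 with IL-4 (-0.52 ± 0.09; adjusted p = 0.00108). The 1A genes share their last exons, so a probe there reads several of them, and of 3 further Ugt1a10 probes 2 passed the same way. Among genes of glutathione and peroxide handling, Gpx2, detected on 2 of 4 control arrays, rose by 0.82, Prdx4 by 0.45, Gss by 0.39 and Gclm by 0.37, the last a subunit of the enzyme that limits glutathione synthesis. The metallothionein gene Mt1 fell by 0.33 on the log2 scale from a level near the top of the scale (12.94 to 13.18 on control arrays). Leaving out the hemoglobin-rich arrays, Ugt2b34 (adjusted p = 0.0196), Ugt1a10 (0.0105), Ugt1a6a (0.0497), Prdx4 (0.0132), Gss (0.0452) and Gclm (0.0323) kept the call, and Ugt2b35 (0.109), Ugt1a6b (0.123), Gpx2 (0.0888) and Mt1 (0.291) lost it. Ugt1a6b and Mt1 also lost it without single arrays, with adjusted p of up to 0.122 and 0.086.

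Of 76 cytochrome P450, retinoid and steroid genes 5 rose and 2 fell. The sulfotransferase gene Sult1a1 rose from 6.93, 7.16, 7.22 and 7.65 to 8.33, 8.39, 7.83 and 8.12, by 1.31 on chip 1 and 0.54 on chip 2. Cyp4f14, which oxidises leukotrienes and other lipids, rose by 0.85 and Cyp3a13 by 0.66. Dio3, which inactivates thyroid hormone, fell from 7.20, 7.26, 7.22 and 7.07 to 6.36, 6.51, 6.41 and 6.42, and the noncoding Dio3os, its antisense neighbour, fell by 0.57 on the log2 scale. Cyp4a12a fell by 0.67. All 6 kept the call without the hemoglobin-rich arrays (largest adjusted p = 0.0451).

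Of 645 transcription factors and chromatin genes 2.95% were called, near the 3.47% of all genes. Elf3, an epithelial ETS factor, lay at 6.77, 6.61, 6.98 and 6.62 in control and at 8.60, 8.51, 8.08 and 8.46 with IL-4, and its 2 further probes passed as well (1.12 and 1.22). Mxd1, which competes with MYC for its partner MAX, rose from 5.41, 5.56, 5.46 and 5.17 to 7.04, 6.73, 6.87 and 7.05. The vitamin D receptor gene Vdr rose from 5.09, 5.02, 4.91 and 5.46 to 6.09, 5.91, 6.06 and 5.74 (0.83 ± 0.11; 1.07 without the hemoglobin-rich arrays). The stress factor gene Atf3 rose by 0.63, Irx3 by 0.42 and Twist2 by 0.39. Of 76 homeobox, SOX, GATA and forkhead genes 4 fell, Foxq1 by 0.38 and the progenitor factors Sox12, Sox4 and Sox11 by 0.37, 0.34 and 0.32 on the log2 scale, while 2 rose. Hey1, a Notch target, fell by 0.34, and Dtx4, a ubiquitin ligase of the Notch pathway, rose by 0.54. With the hemoglobin-rich arrays left out, Sox4 (adjusted p = 0.226), Sox11 (0.255) and Hey1 (0.211) lost the call. Without single arrays Sox4, Sox11 and Sox12 had adjusted p of up to 0.142, 0.0814 and 0.134, and Hey1 reached 0.0709 without IL-4 2.

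At the cell surface, 5 of 86 G protein-coupled receptors and their partners rose and 0 fell. P2ry6, a receptor for extracellular UDP, rose from 6.39, 6.03, 6.26 and 5.75 to 7.30, 7.15, 7.14 and 7.02, and the orphan receptor gene Gprc5b from 7.88, 7.69, 7.72 and 7.55 to 8.52, 8.39, 8.42 and 8.56. Adgrg6 rose by 0.50, the calcitonin receptor partner gene Ramp1 by 0.46 and the thrombin receptor gene F2r by 0.43. Entpd2, an enzyme that hydrolyses extracellular ATP, rose by 0.64. Of 30 genes for receptor tyrosine kinases and adaptors 2 fell and 0 rose, Egfr from 9.26, 9.22, 9.26 and 9.25 to 8.91, 8.81, 9.01 and 8.89 (-0.34 ± 0.07; adjusted p = 0.0124), and Shc4, which was detected on no IL-4 array and was at least 1.08-fold lower. The culture medium held the ligand of the EGF receptor in both groups. The adhesion gene Vcam1, which binds leukocytes, rose by 0.44. Of 196 genes for small GTPases and their regulators 6 fell and 1 rose, led by Rem2, Rasl11b and Rhobtb1 (-0.61, -0.56 and -0.51), each called without the hemoglobin-rich arrays as well. P2ry6, Gprc5b, Adgrg6, Ramp1 and Entpd2 kept their calls there, whereas F2r (adjusted p = 0.0628), Egfr (0.207), Shc4 (0.0808) and Vcam1 (0.0671) lost them. Egfr lost it without IL-4 2 (0.0544), Vcam1 without control 1 or IL-4 2 (up to 0.0542) and Ramp1 without control 2, control 3 or IL-4 1 (up to 0.0853).

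Immune effector genes divided by kind. Of 25 complement and coagulation genes 4 rose and 0 fell. Cfi, the protease that inactivates C3b, lay at 5.97, 6.16, 6.12 and 6.27 in control and at 7.80, 7.24, 6.94 and 7.17 with IL-4, by 1.46 on chip 1 and 0.86 on chip 2. C4bp, a cofactor of that protease, rose from 6.0, 6.11, 6.07 and 6.13 to 7.0, 7.10, 6.41 and 6.85. Cd55, the membrane protein that splits C3 convertases, passed detection on 3 of 4 control arrays; it rose from 4.72, 4.88, 4.63 and 4.51 to 5.44, 5.25, 5.82 and 5.13. These 3 rises are of genes that limit complement, and all kept the call without the hemoglobin-rich arrays (largest adjusted p = 0.0269). Of 19 acute phase and antimicrobial genes 0 rose and 5 fell (26.3%), with a median log2 difference of -0.15. Lcn2, a lipocalin that withholds iron from bacteria, lay at 6.89, 7.14, 7.54 and 7.84 in control and at 6.08, 6.95, 6.01 and 6.16 with IL-4, so that IL-4 2 overlapped the control range; the fall was 0.50 on chip 1 and 1.61 on chip 2. Crp, for C-reactive protein, fell from 7.14, 7.19, 7.11 and 7.12 to 6.66, 6.39, 6.24 and 6.52 (-0.68 ± 0.09; adjusted p = 7.84e-05), the ceruloplasmin gene Cp by 0.34 and the IL-1 receptor antagonist gene Il1rn by 0.33 on the log2 scale. Both groups grew with IL-6 and dexamethasone, which are known to drive acute phase genes. Lcn2 (adjusted p = 0.00203) and Crp (0.0057) kept the call without the hemoglobin-rich arrays, and Cp (0.118) and Il1rn (0.0701) lost it. Cp failed without control 1 (0.0533), and Il1rn without several single arrays (up to 0.136). Tlr2, a receptor for bacterial lipoproteins, fell by 0.49, and of 32 antigen presentation genes 3, all of class I (H2-Q5, H2-K1 and H2-T23), rose by 0.39, 0.36 and 0.30, where probes for this family can bind several members. Without the hemoglobin-rich arrays H2-Q5 (0.0815) and H2-K1 (0.262) lost the call, and all 3 lost it without single arrays (up to 0.136).

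In 6 lists limma called 0 genes on all arrays and at most 3 of a list under any alternative. An unadjusted p under 0.05 was found for 13 of 124 chromatin enzymes, 11 of 62 tyrosine phosphatases and non-receptor kinases (17.7%, against 14.1% of all genes), 1 of 57 ribosomal proteins, 5 of 108 genes of ribosome biogenesis, 7 of 100 translation factors and 4 of 146 genes of RNA splicing. Of 129 cell cycle and mitosis genes 1 fell and 0 rose, Ube2c, a ubiquitin-conjugating enzyme of mitotic exit (-0.28; adjusted p = 0.0289), and it lost the call without the hemoglobin-rich arrays (0.0808) and without single arrays (up to 0.0954). The list's median log2 difference was -0.01, as over all genes. Among 29 cholangiocyte and progenitor genes 4 rose and 2 fell. Besides Aqp1, Slc4a2 and Sox4 these were the keratin genes Krt18, from 12.54, 12.51, 12.32 and 12.20 to 12.80, 12.92, 12.66 and 12.74, and Krt7, from 9.45, 9.68, 9.45 and 9.62 to 9.20, 9.22, 9.25 and 9.09, and Lgals3. Leaving out the hemoglobin-rich arrays, Krt18 (adjusted p = 0.21), Krt7 (0.168) and Lgals3 (0.276) were not called. Krt18 missed the threshold without IL-4 2 (0.0515), and Lgals3 without several single arrays (up to 0.111).

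In no list stood 142 of the called genes. Among them the largest rises were those of Ms4a8a, a membrane protein gene detected on 2 of 4 control arrays, from 4.33, 4.58, 4.51 and 4.75 to 6.08, 6.37, 5.79 and 6.32, of Pdzk1ip1, for a small membrane protein of epithelia, from 5.39, 5.58, 5.72 and 5.94 to 7.41, 7.57, 6.91 and 6.80, and of Shisa2, from 6.10, 6.36, 6.19 and 6.52 to 7.98, 7.51, 7.82 and 7.68. Reg1, a secreted lectin of regenerating gut and pancreas, rose by 1.35, the ubiquitin ligase gene Rnf19b by 1.35 and Hemk1, a methyltransferase gene, by 1.09. The surfactant lectin gene Sftpd rose by 0.85 and Slamf9 by 0.84. Falls were led by Nrep, from 8.41, 8.50, 8.54 and 8.92 to 7.92, 7.91, 7.60 and 7.75, and by Tafa5 (-0.73), the RNA-binding protein gene Mex3a (-0.64) and the fatty acid receptor gene Ffar4 (-0.59). These 12 genes kept the call without the hemoglobin-rich arrays. Uts2b and the oxidase gene Nox4 fell by 0.72 and 0.59 on the log2 scale but were not called there (adjusted p = 0.389 and 0.278). Control 4 held the highest Uts2b signal (8.76), and its change was -0.36 without the 3 arrays. Single arrays also ended both calls, with adjusted p of up to 0.132 for Uts2b and 0.0547 for Nox4, the latter without control 2.

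The share of calls kept without the hemoglobin-rich arrays followed the size of the change. Leaving out arrays also costs precision, and in a lost call this cannot be told apart from an effect of hemoglobin. Leaving out control 1, control 2, control 3, IL-4 1 or IL-4 3 alone kept 272, 260, 262, 276 and 294 of the 363 calls. Leaving out 1 hemoglobin-rich array alone, control 4, IL-4 2 or IL-4 4, kept 316, 243 and 277. Neither set of numbers can be set directly against a fit that lacks 3 arrays. Without control 4, IL-4 2 and IL-4 4, 173 of the 363 genes kept the call in the same direction, 129 of 225 higher and 44 of 138 lower. Of genes with a log2 change of 1 or more 30 of 31 kept it (96.8%), of those from 0.6 to 1 76 of 87 (87.4%), of those from 0.4 to 0.6 55 of 115 (47.8%), and of those under 0.4 12 of 130 (9.23%). The changes themselves moved less: all 363 kept their sign, the median ratio of the change without to that with the 3 arrays was 0.971, and the change shrank by more than 1.5 times for 5 genes (Cxcl17, Lmcd1, Slc39a4, Uts2b and Vgll3, named after their values were seen). Another 17 genes passed only without the 3 arrays. On each chip taken alone all 363 differences had the sign of the whole, and 222 were larger on chip 1. The genes were called on these same arrays. The shared signs, on the chips and without the 3 arrays, thus follow in large part from that choice and are not a replication. With the chip as a block 351 of the 363 remained among 395 called genes, on chip 1 alone 182 and on chip 2 alone 95. Leaving out 1 array at a time kept 218 of the 363 in every case. Across all alternatives 69 genes never lost the call, among them Cish, Ccl17, Ppargc1b, Igfbp5, Prss35, Tmprss2, Hs3st1, Car2, Aqp1, Egln3, Me1, Aldh3a1, Elf3, Cfi and, of the falls, Pcsk6, Dio3, Crp, Gzme and Nrep.

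**Figure D3:**
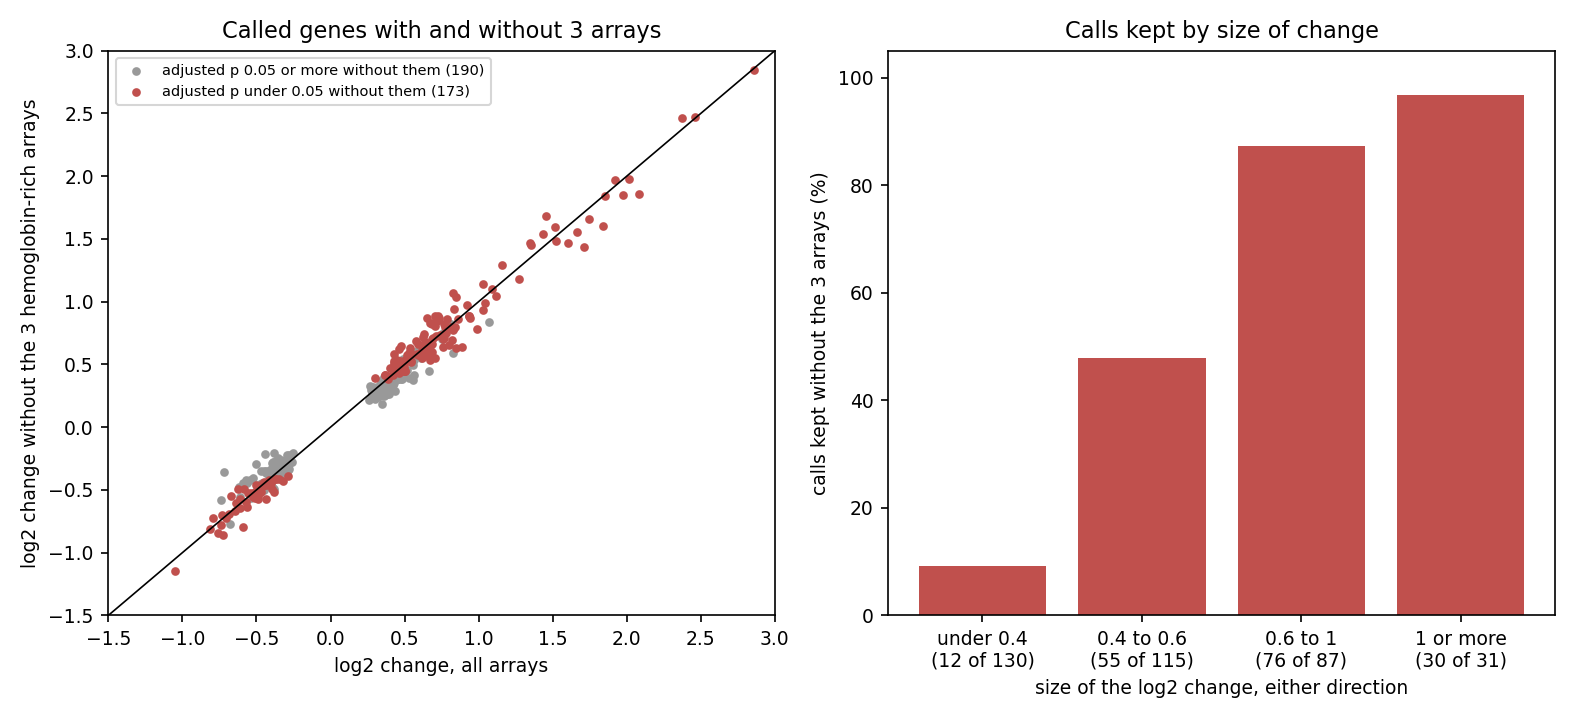
Left, log2 change with IL-4 of the 363 called genes on all arrays against that without control 4, IL-4 2 and IL-4 4, with the line of equality; 3 genes lie beyond the axes. Right, the share of calls kept without those arrays by size of change (%), from 9.23% for log2 changes under 0.4 to 96.8% for 1 or more.

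**Figure D4:**
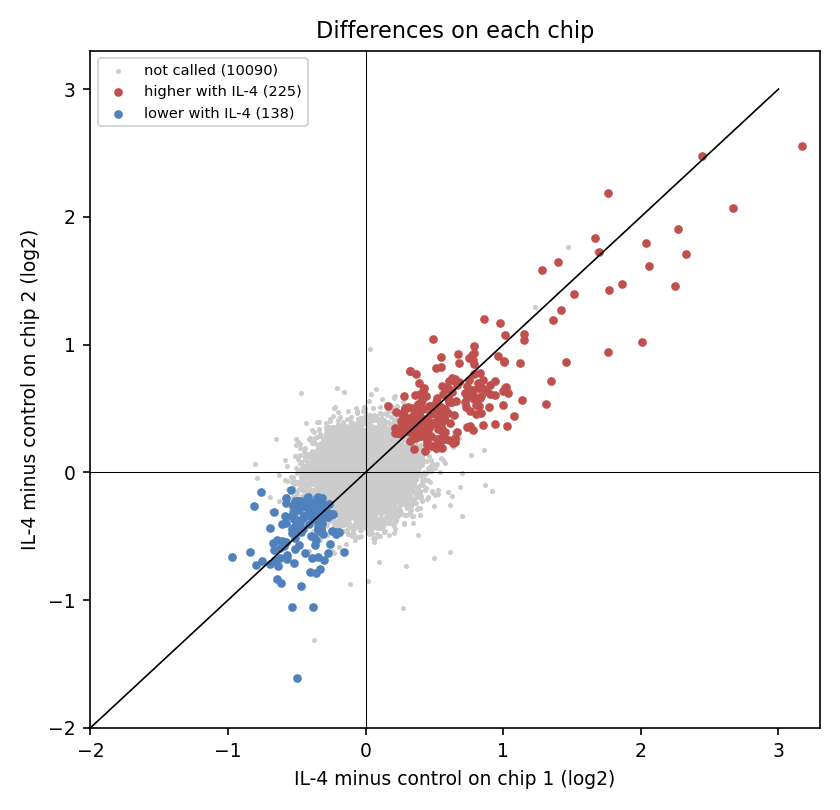
IL-4 minus control on chip 1 (2 arrays of each group) against the same difference on chip 2, on the log2 scale, for all tested genes, with the line of equality; 3 genes lie beyond the axes. All 363 called genes have the same sign on both chips. They were called on these same arrays, so this follows in large part from the choice of genes.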

How the data were processed

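Total RNA of 12 samples was labelled with Cy3 and read on Illumina beadchips, 1 array per sample. The deposited table held, per the file headers, 1 intensity per probe and array, not normalised and not background-subtracted as far as its values show, with a detection p-value for each. GenomeStudio 2011.1 is the tool named, per the submitters' processing notes. A second deposited table held log2 values; set against the intensities, they equalled log2(intensity) plus a constant per array (2.22 to 2.34), which gave every array a median of 8.97.

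From the intensities, limma 3.58.1 (R 4.3.3) corrected background and normalised by neqc with an offset of 16. Of 45281 probes 19915 passed the detection filter, of which 16680 had 1 gene symbol, 3226 none and 9 several. Symbols came from the platform annotation, updated through gene identifiers to RefSeq names (GRCm38.p6). Each gene was represented by its brightest probe, by the mean over all 12 arrays, treated ones included. One model over all 12 arrays gave the contrast of IL-4 with control, with Benjamini-Hochberg adjustment over 10453 genes and a threshold of 0.05. The fit was tested on simulated data. Of 78 further probes of 52 named genes 37 passed the same way, 7 had the opposite sign and 0 passed in the opposite direction. The probes of opposite sign were of Adamts9, C4bp, Capn13, Ltbp1, Pfkl, Sox12 and Wnt6. The number of arrays limits the precision. A gene detected on no array of a group is given a bound, in which the brighter mean is set against each array's lowest signal above background or, where higher, the gene's own signal.

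Each list's called genes were named if 6 or fewer, otherwise its 3 largest rises and falls, with the largest changes outside all lists and a few fixed names; the text omits some of these. Ltbp1, Tgfbr1, Gclm, Gss, Prdx4, Pfkp, Ugt1a10, Ugt2b34, Serpinb6b, Serpinb9b, Serpinb9f and Serpina7 were added after their values were seen. The comparison, the lists and the tests were chosen with earlier results of these data known, and some list entries were corrected after matching. Replicate numbers follow the chip (1 and 2, 3 and 4). Same-numbered control and IL-4 arrays deviated from their group means with correlations of 0.11, -0.15, 0.15 and -0.11 across genes, so the numbers were not taken as pairs. Alternatives covered normalisation, filters, probe choice, the variance model, chip, replicate number, single arrays and hemoglobin.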

Additional observations from a re-analysis of the deposited data

Results flagged for a closer look

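In 26 of 322 groups of 4 arrays, for 161 named genes, and in the hemoglobin mean of the control arrays, 1 array stood far from the other 3 by Dixon's ratio. Chance flags about 1 in 20 groups, and no cause was tested. Values are normalised log2 signals.

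Control 4 was the odd array for 8 genes. It was highest for Hbb-bs (6.21), Hbb-bt (6.05) and the hemoglobin mean (5.95), and also for Chil4 (5.12), Ccl7 (8.16), Prdx4 (11.13) and Sftpd (6.05), and it was lowest for Slc2a1 (9.86) and Irx3 (6.88). Chil4, Ccl7, Prdx4, Sftpd, Slc2a1 and Irx3 rose with IL-4, so control 4 lay toward the IL-4 arrays for the first 4 and away from them for Slc2a1 and Irx3.

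IL-4 2, also rich in hemoglobin, was highest for Serpinb6b (9.73), Galnt14 (4.99), Me1 (9.60) and Lcn2 (6.95) and lowest for Slc4a2 (10.71) and Cyp4a12a (5.01). IL-4 4 was highest for Igfbp4 (11.96) and Rasl11b (6.22) and lowest for Pdk1 (5.74).

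Among the other arrays, control 1 was lowest for Ccl9 (8.84) and highest for Slc26a4 (4.49) and Gclm (10.19). Control 2 was lowest for Orai1 (8.55) and Hey1 (6.63), and control 3 for Ccl17 (5.86). IL-4 1 was lowest for Prss35 (8.0) and highest for Ext1 (10.61), and IL-4 3 was lowest for Ctsz (8.67).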

How the results depend on the processing

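All 363 called genes kept their direction under each alternative in which they were tested, and 69 also kept the call under every one. The alternatives reuse arrays on which the genes were called, so a kept direction was largely set in advance. The counts moved more. With the submitters' processed values 120 genes were higher and 294 lower, on chip 1 alone 90 were lower, and on chip 2 alone 77 were higher and 24 lower. Without the 3 hemoglobin-rich arrays 137 were higher and 53 lower, with the hemoglobin level as a covariate 59 were lower, and at an adjusted p of 0.01 149 were higher and 55 lower. Leaving out IL-4 2 and IL-4 4 but keeping control 4, a choice made after seeing the data, gave 131 higher and 46 lower genes. Fewer arrays enter these subsets, and the cause of the other shifts was not tested. Leaving out single arrays gave 173 to 246 higher and 78 to 196 lower genes. The largest of these counts, 246 higher and 196 lower, came without control 4. The count of lower genes moved by over 1.5 times without IL-4 2 (78), control 2 (85) or control 3 (88). With the replicate block 222 genes were higher and 136 lower; the numbers were not shown to pair the arrays. Signal near background limits the dimmer genes, for which changes are understated by the offset.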
